A study of Mus musculus with 9 samples.

Results

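The macrophage identity markers described here are 10 genes whose proteins mark macrophages on the surface or carry out their work inside the cell: Adgre1, Mpeg1, Cd68, Mrc1, Cd163, Mertk, Axl, Siglec1, Lyz1 and Lyz2. They were chosen by name, with earlier results of these data known, and each was measured by the probe set whose platform annotation gives that symbol alone. All 10 had such a probe set, among 19937 genes on the array with at least 1. The RNA came from the mouse acute myeloid leukaemia line RN2, which carries the MLL-AF9 fusion oncogene and the activated NrasG12D allele. Expression was read on 9 one-colour Affymetrix arrays of total RNA, to ask what changes downstream of Brg1, the ATPase of the SWI/SNF chromatin remodelling complex (gene Smarca4).

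Each of 3 groups, with 2 arrays apiece, carried a short hairpin RNA against Brg1 in the doxycycline-inducible TRMPV vector, named Brg1sh_3232, Brg1sh_3364 and Brg1sh_4935. The 3 control arrays, Rluc, carried a hairpin against Renilla luciferase, which mouse cells lack. Every group, control included, received 1 ug/ml doxycycline for 96 h, and no array without doxycycline was analysed here. The cell line name of the Rluc arrays carries a further term, TtTMPV, that the hairpin arrays do not have, and its effect cannot be told apart from that of the hairpins. Whether arrays of a group were separate cultures is not in the labels, and the p-values therefore measure array-to-array spread that may be technical.

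Macrophages take up and digest microbes, dying cells and debris. Adgre1 encodes F4/80, an adhesion receptor used to recognise mouse macrophages. Mpeg1 encodes perforin-2, a pore-forming protein that acts on engulfed bacteria, Cd68 encodes macrosialin of the endosome and lysosome membrane, and Lyz1 and Lyz2 encode lysozymes that cut bacterial cell walls. Mertk and Axl are receptor tyrosine kinases of the TAM family, which recognise dying cells through the bridging ligands Gas6 and protein S. Mrc1 is the mannose receptor, Cd163 the scavenger receptor for haemoglobin bound to haptoglobin, and Siglec1 binds sialic acid on other cells.

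All values are log2 expression, and a fold change is the hairpin mean minus the Rluc mean on that scale. Genes were called at an adjusted p under 0.05 in a limma fit across all genes (two-sided moderated test, Benjamini-Hochberg adjustment). The target gene was lower in every hairpin array: Smarca4 had 10.67, 10.90, 10.78, 10.81, 10.70 and 10.76 in the Brg1sh arrays, against 11.79, 11.77 and 11.79 in the Rluc arrays. Its level with Brg1sh_3232, Brg1sh_3364 and Brg1sh_4935 was 50.0%, 50.3% and 48.2% of Rluc, and the mean fold change was -1.01 (SE 0.05, adjusted p = 2.22e-06). Of 11 leukaemia and myeloid genes looked at as a check of the labels, 1 had a mean signal below the median of all genes. Ptprc, the leukocyte marker CD45, lay between 12.45 and 12.59 in Brg1sh arrays and between 12.15 and 12.30 in Rluc arrays. Kit, a progenitor receptor, lay between 11.69 and 11.95 in Brg1sh arrays and between 11.74 and 11.84 in Rluc arrays. Among the 3 genes of that group with the smallest p, Mpo, the myeloperoxidase of granulocyte precursors, fell by 0.87 (adjusted p = 3.11e-06), Hoxa9, a target of MLL fusions, fell by 0.40 (adjusted p = 0.000229) and Itgam, the CD11b integrin chain, rose by 0.40 (adjusted p = 3.43e-05, limma). Array medians lay between 7.39 and 7.49, and Pearson correlations over all probe sets were 0.996 to 0.997 within groups.

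In the mean of the 3 hairpins, 6 of the 10 markers rose (Adgre1, Mpeg1, Cd68, Mertk, Lyz1 and Lyz2), none fell and 4 were not called, where 13.3% of all genes rose and 15% fell. With Brg1sh_3232, 5 markers rose and 0 fell, beside 9.59% and 11.3% of all genes. With Brg1sh_3364, 3 rose and 0 fell, beside 13.6% and 12.2% of all genes. With Brg1sh_4935, 4 rose and 0 fell, beside 9.79% and 12.3% of all genes. The median fold change of the 10 markers was 0.18 with Brg1sh_3232, 0.09 with Brg1sh_3364, 0.21 with Brg1sh_4935 and 0.18 in the mean, and the median over all genes was 0.0055, -0.010, 0.00033 and -0.00036 in the same comparisons. These comparisons share the Rluc arrays and are not independent of each other. Because the markers were chosen with earlier results of these data known, their counts beside those of all genes are a description. For 4 markers (Adgre1, Mpeg1, Cd68 and Lyz2) all 6 Brg1sh arrays lay above all 3 Rluc arrays, as did 10.7% of all genes, and the other 6 markers overlapped. With the 3 hairpin means as replicates, or hairpin as a random block, 3 of the 6 calls in the mean were kept, those of Adgre1, Mpeg1 and Cd68, and without Rluc replicate 3 the same 3 were called. The arrays are of bulk RNA, so fewer or more cells of a type and less or more RNA per cell cannot be told apart.

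**Figure D1:**
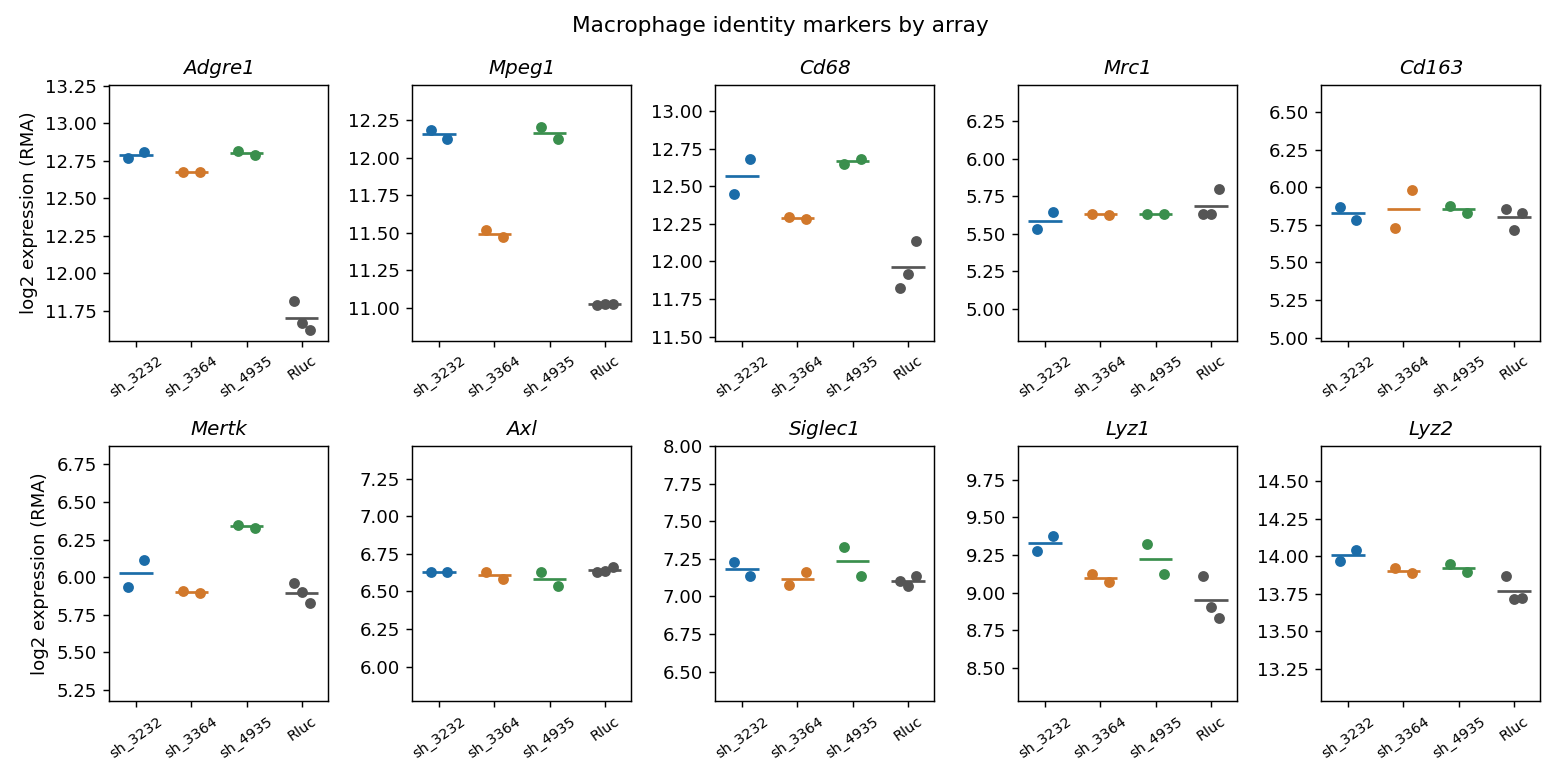
Log2 expression (y axis) of each of the 10 markers in every array, grouped on the x axis as Brg1sh_3232, Brg1sh_3364, Brg1sh_4935 and Rluc; points are arrays, horizontal lines are group means, and every panel spans the same number of log2 units. Adgre1, Mpeg1 and Cd68 sit above Rluc with every hairpin, Mertk stands apart with Brg1sh_4935, and Mrc1, Cd163, Axl and Siglec1 stay near their Rluc level.

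Adgre1 had the largest mean change of the 10 markers. The F4/80 gene had 12.77 and 12.81 with Brg1sh_3232, 12.67 and 12.67 with Brg1sh_3364 and 12.82 and 12.79 with Brg1sh_4935, against 11.82, 11.67 and 11.62 with Rluc. All 6 hairpin arrays were above all 3 Rluc arrays, with a gap far wider than the spread inside any group. Adgre1 averaged 12.75 ± 0.07 in Brg1sh arrays (SD, n = 6) and 11.70 ± 0.10 in Rluc arrays (SD, n = 3), and in linear terms it was 2.07-fold higher over the 3 hairpins. The log2 fold change was 1.08 with Brg1sh_3232 (adjusted p = 1.25e-05), 0.97 with Brg1sh_3364 (adjusted p = 1.09e-05) and 1.10 with Brg1sh_4935 (adjusted p = 6.22e-06, limma). The mean change was 1.05 (SE 0.05, adjusted p = 1.29e-06), which ranked 121 of 19937 genes by size of rise. No difference among hairpins was called for Adgre1 (limma F test, adjusted p = 0.374).

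The endolysosomal genes Mpeg1 and Cd68 rose with all 3 hairpins. Mpeg1 had 12.18 and 12.12 with Brg1sh_3232, 11.51 and 11.47 with Brg1sh_3364 and 12.20 and 12.13 with Brg1sh_4935, against 11.02, 11.03 and 11.03 with Rluc. No hairpin array overlapped Rluc, and both Brg1sh_3364 arrays lay between Rluc and the other hairpins. Mpeg1 was 2.19-fold higher with Brg1sh_3232 (adjusted p = 2.32e-06), 1.38-fold higher with Brg1sh_3364 (adjusted p = 0.000107) and 2.20-fold higher with Brg1sh_4935 (adjusted p = 1.54e-06, limma). Its mean log2 change was 0.91 (SE 0.04, adjusted p = 5.58e-07), rank 176 of 19937.

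Mpeg1 also differed among the hairpins themselves (limma F test, adjusted p = 0.000263), one of 2 markers called in that test, where 10.5% of all genes were called. It was lower with Brg1sh_3364 than with Brg1sh_3232, by a log2 difference of -0.66 (SE 0.05, adjusted p = 0.000186), the single marker that fell in that comparison, beside 3.84% of all genes. With Brg1sh_4935 it was 0.67 higher than with Brg1sh_3364 (SE 0.05, adjusted p = 0.000288), where 2 markers rose, beside 3.10% of all genes. Brg1sh_4935 and Brg1sh_3232 differed by 0.01 (95% interval -0.10 to 0.12, adjusted p = 0.966). None of the 10 markers was called between them, beside 0.612% of all genes that rose and 0.411% that fell. The target Smarca4 itself was not called between any pair of hairpins (adjusted p = 0.973 for Brg1sh_3364 against Brg1sh_3232, 0.804 for Brg1sh_4935 against Brg1sh_3232 and 0.692 for Brg1sh_4935 against Brg1sh_3364).

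Cd68 had 12.45 and 12.68 with Brg1sh_3232, 12.29 and 12.28 with Brg1sh_3364 and 12.65 and 12.68 with Brg1sh_4935, against 11.82, 11.92 and 12.14 with Rluc. Every hairpin array was above every Rluc array, with the Brg1sh_3364 arrays closest to the highest Rluc array. The log2 change was 0.60 with Brg1sh_3232 (adjusted p = 0.00216), 0.33 with Brg1sh_3364 (adjusted p = 0.0317) and 0.71 with Brg1sh_4935 (adjusted p = 0.00074), with a mean of 0.55 (SE 0.07, adjusted p = 0.000501, limma). The difference among hairpins was not called (F test, adjusted p = 0.089). In the same test it was called without Rluc replicate 3 (adjusted p = 0.0325). With all arrays kept, it was also called when replicate number was fitted as a block (adjusted p = 0.027). The call with Brg1sh_3364 was lost in 8 of 18 alternative settings, among them each fit without 1 Brg1sh_3364 array (adjusted p = 0.148 and 0.127), without 1 Brg1sh_4935 array (adjusted p = 0.0595 for either) and without Rluc replicate 1 or 2 (adjusted p = 0.083 and 0.0865).

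**Figure D2:**
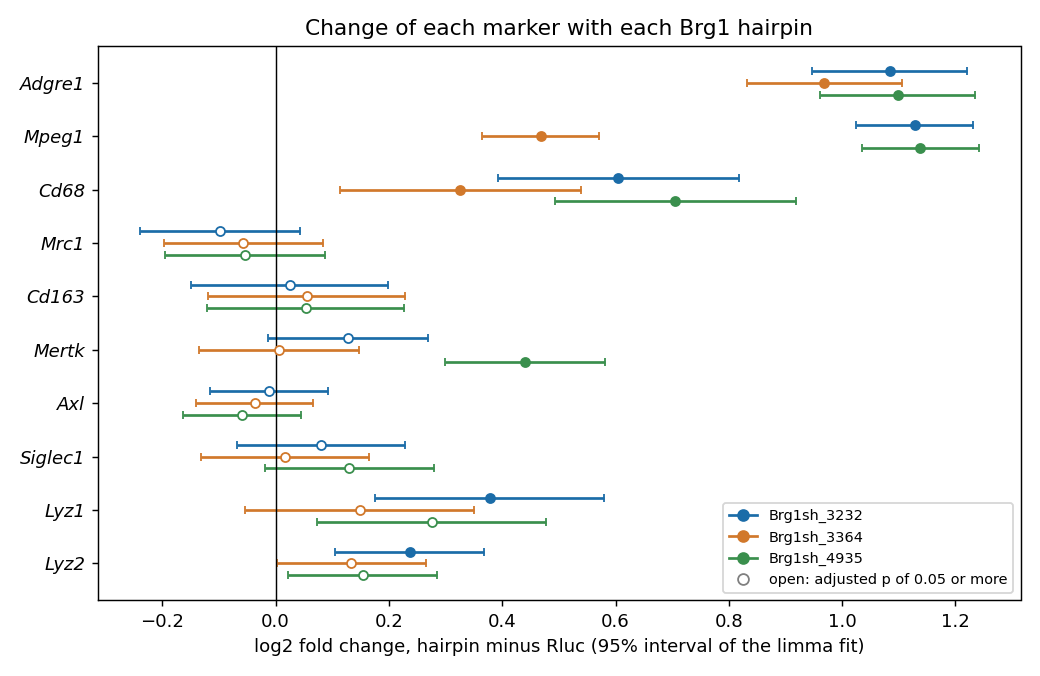
Log2 fold change over Rluc (x axis) of each marker with each Brg1 hairpin, with the 95% interval of the limma fit as bars; filled points passed an adjusted p of 0.05 and open points did not. Adgre1 was close to 1 with all 3 hairpins, Mpeg1 was 0.47 with Brg1sh_3364 and above 1 with the other two, and the one filled point of Mertk is 0.44 with Brg1sh_4935.

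The RefSeq table (mouse build GRCm38.p6) gave the 250 bases before the start site for 8 of the 10 markers, all except Adgre1 and Siglec1. Of these, 4 windows are given 5′ to 3′: the lysozyme pair, which can be compared letter by letter, Cd68, which held the AP-1 motif, and Mpeg1, the marker with the largest mean change among the 8. Capitals mark the ETS box GGAAGT, searched on both strands and so also printed as ACTTCC, and the AP-1 motif TGANTCA. The Lyz1 window is chr10:117292869-117293118, the Lyz2 window chr10:117282273-117282522 and the Cd68 window chr11:69666171-69666420, all on the minus strand, and the Mpeg1 window is chr19:12460520-12460769 on the plus strand.
Lyz1: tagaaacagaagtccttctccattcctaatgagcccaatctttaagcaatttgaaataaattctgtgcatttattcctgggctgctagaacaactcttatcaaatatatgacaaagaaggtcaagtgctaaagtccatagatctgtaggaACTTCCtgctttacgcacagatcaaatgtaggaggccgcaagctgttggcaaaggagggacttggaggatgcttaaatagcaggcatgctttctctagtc
Lyz2: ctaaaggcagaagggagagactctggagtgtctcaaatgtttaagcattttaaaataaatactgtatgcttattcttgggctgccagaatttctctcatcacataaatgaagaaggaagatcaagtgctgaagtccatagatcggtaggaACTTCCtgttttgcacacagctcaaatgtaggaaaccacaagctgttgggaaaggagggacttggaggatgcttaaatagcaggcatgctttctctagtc
Cd68: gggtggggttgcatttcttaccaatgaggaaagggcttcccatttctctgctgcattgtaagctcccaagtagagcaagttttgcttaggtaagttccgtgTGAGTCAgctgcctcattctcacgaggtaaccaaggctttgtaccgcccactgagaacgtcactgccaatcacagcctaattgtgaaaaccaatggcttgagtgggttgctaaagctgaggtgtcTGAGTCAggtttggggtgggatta
Mpeg1: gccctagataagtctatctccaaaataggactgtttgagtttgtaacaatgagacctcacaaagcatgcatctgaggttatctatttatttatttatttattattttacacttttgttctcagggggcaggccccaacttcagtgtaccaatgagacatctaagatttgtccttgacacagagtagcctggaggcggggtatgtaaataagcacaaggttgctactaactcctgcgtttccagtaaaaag

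Lyz1 and Lyz2 are neighbours on chromosome 10, and their windows shared 200 of 252 aligned columns, an identity of 79.4%, with the last 50 bases before the start site the same in both. The other 27 pairs of marker promoters lay between 40.6% and 47.9%. Both lysozyme windows held the ETS box 100 bases before the start site, and the Mrc1 window held it 211 bases before. So 3 of 8 windows had a match, against 19.7% of 32851 mouse promoters of the same length. The lysozyme windows are alike and hold the box at the same place, so their matches are not separate cases. The AP-1 motif matched in Cd68 alone of the 8 windows, 149 and 24 bases before the start site, where 6.75% of all promoters had a match. The windows of Mpeg1, Mertk, Axl and Cd163 held neither motif. Both motifs were chosen after the sequences had been seen, and a match is a run of letters and not a measured binding site.

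Both lysozyme genes rose in the mean of the hairpins, by less than the markers above. Lyz2 had 13.97 and 14.04 with Brg1sh_3232, 13.92 and 13.89 with Brg1sh_3364 and 13.95 and 13.90 with Brg1sh_4935, against 13.87, 13.72 and 13.72 with Rluc. All hairpin arrays were above Rluc, the lowest of them by a small margin over Rluc replicate 1. Its mean log2 change was 0.17 (SE 0.05, adjusted p = 0.0174), and per hairpin it was 0.24 with Brg1sh_3232 (adjusted p = 0.0193), 0.13 with Brg1sh_3364 (adjusted p = 0.14) and 0.15 with Brg1sh_4935 (adjusted p = 0.101, limma).

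Lyz1 had 9.28 and 9.38 with Brg1sh_3232, 9.12 and 9.07 with Brg1sh_3364 and 9.32 and 9.12 with Brg1sh_4935, against 9.11, 8.90 and 8.83 with Rluc. Here 1 of the Brg1sh_3364 arrays was below Rluc replicate 1, so the groups overlapped. Lyz1 rose by 0.27 in the mean (SE 0.07, adjusted p = 0.0175) and by 0.38 with Brg1sh_3232 (SE 0.09, adjusted p = 0.016), while the values of 0.15 with Brg1sh_3364 (adjusted p = 0.291) and 0.28 with Brg1sh_4935 (adjusted p = 0.057, limma) were not called. Differences among hairpins were called for neither gene (F test, adjusted p = 0.32 for Lyz1 and 0.513 for Lyz2). Across the 9 arrays the pair correlated at r = 0.962, a description over points that share groups and normalization. The coding sequences of the pair are near-identical, and whether their probes cross-hybridise was not tested, so each value may hold signal of the other gene.

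The lysozyme calls were lost in several fits, some of them with all arrays kept. With arrays centred on their medians, Lyz2 had 0.13 in the mean (adjusted p = 0.082), and with every row tested, Lyz1 kept its 0.27 at an adjusted p of 0.0505. With arrays left out, in the mean, the call was lost without Rluc replicate 2 (adjusted p = 0.0743 for Lyz1 and 0.0778 for Lyz2) and without Rluc replicate 3 (adjusted p = 0.0809 for Lyz1 and 0.0743 for Lyz2), and for Lyz1 also without Brg1sh_3232 replicate 2 (adjusted p = 0.0501). It was lost too when all of Brg1sh_3232 was left out (0.21, adjusted p = 0.0919, for Lyz1 and 0.14, adjusted p = 0.0681, for Lyz2). The Brg1sh_3232 calls were lost without Rluc replicate 2 (adjusted p = 0.0506 for Lyz1 and 0.0584 for Lyz2) and without Brg1sh_3232 replicate 2 (adjusted p = 0.122 for Lyz1 and 0.126 for Lyz2). Lyz1 also lost its call without Brg1sh_3232 replicate 1 (adjusted p = 0.0507), and Lyz2 without Rluc replicate 3 (adjusted p = 0.0547). Without Rluc replicate 1, by contrast, Lyz1 passed with Brg1sh_4935 (adjusted p = 0.0122) and Lyz2 with Brg1sh_3364 (adjusted p = 0.0316) and Brg1sh_4935 (adjusted p = 0.0232).

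Of the TAM receptors, Mertk rose with Brg1sh_4935 and Axl was not called with any hairpin. Mertk had 5.94 and 6.11 with Brg1sh_3232, 5.91 and 5.90 with Brg1sh_3364 and 6.35 and 6.33 with Brg1sh_4935, against 5.96, 5.90 and 5.83 with Rluc. Both Brg1sh_4935 arrays were above all other arrays, and the other hairpins overlapped Rluc. The log2 change was 0.44 with Brg1sh_4935 (SE 0.06, adjusted p = 0.00107), and the values of 0.13 with Brg1sh_3232 (adjusted p = 0.208) and 0.0058 with Brg1sh_3364 (adjusted p = 0.967, limma) were not called.

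The hairpins differed for Mertk (limma F test, adjusted p = 0.0103), with Brg1sh_4935 higher than Brg1sh_3364 by 0.43 (adjusted p = 0.00602) and a value of 0.31 over Brg1sh_3232 that was not called (adjusted p = 0.0774). This F test lost its call without either array of Brg1sh_3364 (adjusted p = 0.0603 and 0.0596) or of Brg1sh_4935 (adjusted p = 0.0774 and 0.0675). The mean over hairpins was 0.19 (SE 0.05, adjusted p = 0.016), and it was 0.07 with an adjusted p of 0.483 when Brg1sh_4935 was left out and 0.16 with an adjusted p of 0.0715 without Rluc replicate 3.

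Axl lay between 6.54 and 6.63 in Brg1sh arrays and between 6.63 and 6.66 in Rluc arrays. Its mean change was -0.04 (SE 0.04, 95% interval -0.12 to 0.04, adjusted p = 0.554, limma). Both Brg1sh_4935 arrays were below all Rluc arrays by small margins, and the other hairpins overlapped Rluc. In 4 arrays Axl had exactly the same value, 6.63, as Mrc1 had with 5.63, and 16.5% of all genes (3296) held such a repeat in at least 4 arrays.

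The partners of these receptors were taken from a list of 20 genes for TAM partners and apoptotic cell uptake, of which 8 rose, 2 fell and 10 were not called in the mean of hairpins, with a median of 0.09. Of all genes, 13.3% rose and 15% fell in the same comparison. With the 3 hairpin means as replicates, 4 genes of the list were called instead of 10. Itgb5, an integrin subunit that binds the bridging protein Mfge8 on dying cells, rose by 1.04 (SE 0.04, adjusted p = 3.96e-07). Stab1, a receptor for phosphatidylserine and modified lipoproteins, rose by 1.06 (SE 0.06, adjusted p = 3.51e-06), and Itgb3, another integrin beta chain, by 0.94 (SE 0.05, adjusted p = 2.51e-06, limma). All 3 rose with each hairpin, Itgb5 by 1.25, 0.79 and 1.08 and Stab1 by 1.14, 0.58 and 1.46 with Brg1sh_3232, Brg1sh_3364 and Brg1sh_4935.

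The third TAM receptor and the ligands were looked up after the values had been seen. Tyro3 had a mean change of -0.10 (adjusted p = 0.0798) and Gas6, a ligand of all 3 receptors, of -0.06 (adjusted p = 0.583). Pros1, the gene of protein S, fell by 0.75 (SE 0.10, adjusted p = 0.000514), with values of -0.58, -1.29 and -0.39 for Brg1sh_3232, Brg1sh_3364 and Brg1sh_4935 (adjusted p = 0.0127, 0.000134 and 0.062, limma).

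The mannose, haemoglobin and sialic acid receptors gave no call. Mrc1 lay between 5.53 and 5.65 in Brg1sh arrays and between 5.63 and 5.80 in Rluc arrays, with a mean change of -0.07 (95% interval -0.18 to 0.04, adjusted p = 0.368). Cd163 lay between 5.73 and 5.98 in Brg1sh arrays and between 5.72 and 5.85 in Rluc arrays, with a mean change of 0.04 (95% interval -0.09 to 0.18, adjusted p = 0.683). Siglec1 lay between 7.08 and 7.33 in Brg1sh arrays and between 7.07 and 7.14 in Rluc arrays, with a mean change of 0.08 (95% interval -0.04 to 0.19, adjusted p = 0.352, limma).

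The groups of all 3 overlapped, and none of their 9 comparisons with a single hairpin was called. Together with Mertk and Axl they are the 5 markers whose mean signal was below the median of all genes, 7.80. No detection call was given with the values, so it cannot be said whether these probe sets were above background. For Mrc1, Cd163, Siglec1 and Axl, a small change may have gone uncalled with this number of arrays.

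Relatives of these receptors moved in both directions. Of 20 scavenger, mannose receptor and sialic acid binding genes, 6 rose, 4 fell and 10 were not called in the mean of hairpins. Their median was 0.03, where 13.3% of all genes rose and 15% fell. Colec12, a scavenger receptor with a collagen and a lectin part, rose by 2.03 (SE 0.14, adjusted p = 1.18e-05), and Siglece, an inhibitory sialic acid receptor of myeloid cells, by 0.75 (SE 0.05, adjusted p = 1.04e-05). Ly75, the DEC-205 receptor of the Mrc1 family, had -0.97 with Brg1sh_3232 and -0.98 with Brg1sh_4935 but 0.24 with Brg1sh_3364 (adjusted p = 3.32e-06, 2.15e-06 and 0.00263). Its difference between Brg1sh_3364 and Brg1sh_3232 was 1.21 (SE 0.05, adjusted p = 5.66e-06, limma).

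Of 15 structural relatives of the markers, 13 were measured, and 1 rose, 2 fell and 10 were not called, with a median of -0.01, beside 13.3% of all genes that rose and 15% that fell. The mean signal of 10 of the 13 was below the median of all genes. Prf1, the perforin of killer lymphocytes to which Mpeg1 is related, fell by 0.51 (SE 0.04, adjusted p = 4.43e-05). The F4/80 relatives Adgre4 and Adgre5 differed by hairpin. Adgre4 had 6.56 and 6.69 with Brg1sh_3232, 7.85 and 7.74 with Brg1sh_3364 and 6.68 and 6.59 with Brg1sh_4935, against 6.63, 6.69 and 6.46 with Rluc. It was high in the Brg1sh_3364 arrays alone, a change of 1.21 (adjusted p = 1.09e-05), and its mean of 0.43 (adjusted p = 0.000569) was 0.04 (adjusted p = 0.737) when Brg1sh_3364 was left out.

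Adgre5, which encodes CD97, had 11.79 and 11.92 with Brg1sh_3232, 12.50 and 12.46 with Brg1sh_3364 and 11.86 and 11.83 with Brg1sh_4935, against 12.48, 12.51 and 12.33 with Rluc. The Brg1sh_3364 arrays overlapped Rluc and the other hairpin arrays were all below it. Changes were -0.59, 0.04 and -0.60 (adjusted p = 0.000346, 0.753 and 0.000222) for Brg1sh_3232, Brg1sh_3364 and Brg1sh_4935, and the difference among hairpins was called for both genes (limma F test, adjusted p = 0.00132 for Adgre5 and 0.000245 for Adgre4).

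Wider macrophage lists were set beside the markers, and in the mean of hairpins 13.3% of all genes rose and 15% fell. Of 30 genes shared by tissue macrophages, 29 were measured, and 16 rose, 1 fell and 12 were not called in the mean of hairpins, with a median of 0.20. Among them Csf1r, which encodes the M-CSF receptor, rose by 1.06 (SE 0.04, adjusted p = 3.21e-07), and with Brg1sh_3364 it was 0.39 lower on the log2 scale than with Brg1sh_3232 (-0.39, adjusted p = 0.00222, limma), as Mpeg1 was. Of 20 macrophage transcription factors, 19 were measured, and 7 rose, 2 fell and 10 were not called, with a median of 0.0038. Mitf, which drives lysosome genes in several cell types, rose by 0.85 (SE 0.04, adjusted p = 2.09e-06), and Egr2, a zinc finger factor of macrophage differentiation, by 0.85 (SE 0.07, adjusted p = 3.01e-05). Cebpa, which granulocytes and monocytes need to form, fell by 0.61 (SE 0.04, adjusted p = 1.58e-05, limma). With the 3 hairpin means as replicates, 11 of the tissue macrophage genes were called instead of 17, and 4 of the transcription factors instead of 9.

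Markers of other cell types were measured in the same arrays, where 13.3% of all genes rose and 15% fell in the mean of hairpins. Of 17 neutrophil genes, 6 rose, 6 fell and 5 were not called, with a median of 0.06, and their summed linear signal was 107025 to 122167 in Brg1sh arrays and 114345 to 134524 in Rluc arrays. Of 14 monocyte genes, 11 were measured, and 3 rose, 3 fell and 5 were not called, with a median of -0.04 and sums of 16133 to 22465 in Brg1sh arrays and 14767 to 17336 in Rluc arrays. Lyz2, Cd68 and Mpeg1 are also expressed by monocytes, and Lyz2 by neutrophils, so these markers are not specific to macrophages. Whether the other markers, Adgre1 among them, are specific to macrophages was not tested. With the 3 hairpin means as replicates, 4 neutrophil genes were called instead of 12 and 2 monocyte genes instead of 6. Single genes of both lists moved in opposite directions. Over the alternative settings for the mean, the neutrophil gene Mmp8 ranged from 1.65 to 2.01 and Mpo from -1.09 to -0.75. In the monocyte list, Ms4a6c ranged from 0.53 to 0.95 and F13a1 from -1.66 to -1.31.

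The next lists also stand beside 13.3% of all genes that rose and 15% that fell. Of 15 dendritic cell genes, 1 rose and 1 fell (median 0.02). Their sums were 5528 to 7316 in Brg1sh arrays and 6547 to 7076 in Rluc arrays. In the list for mast cells, basophils and eosinophils (15 genes), 3 rose and 4 fell (median 0.0084), with sums of 12010 to 16084 in Brg1sh arrays and 9314 to 10273 in Rluc arrays. Of 15 lymphoid genes, 13 were measured, and 1 rose and 1 fell (median 0.02), with sums of 1213 to 1629 in Brg1sh arrays and 1486 to 1671 in Rluc arrays. Of 11 erythroid and megakaryocyte genes, 7 were measured and none was called (median 0.06), with sums of 1271 to 1712 in Brg1sh arrays and 1173 to 1479 in Rluc arrays. The summed signal of the mast cell list was higher in all Brg1sh arrays than in all Rluc arrays, though more of its genes fell than rose. Its bright member Cpa3, a mast cell protease gene, lay between 12.22 and 13.25 in Brg1sh arrays. In Rluc arrays Cpa3 lay between 8.52 and 9.87 (mean change 3.46, adjusted p = 1.68e-05, limma). The sum was not taken without Cpa3, so it does not stand for the list as a whole. Hdc, the histamine-forming enzyme of the same list, fell by 1.71 (adjusted p = 3.15e-07, limma). Prg2, also of that list, rose by 0.93 to 2.15 over 22 alternative settings for the mean and was called in 20 of them. The hairpins themselves differed for Prg2 (limma F test, adjusted p = 1.19e-06), so its mean joins unequal changes. The markers' own sum was 30422 to 36129 in Brg1sh arrays and 23566 to 25240 in Rluc arrays, and the part of these cell types in the markers' values was not tested. Log2 array values have no true 0, so no marker can be given as absent.

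**Figure D3:**
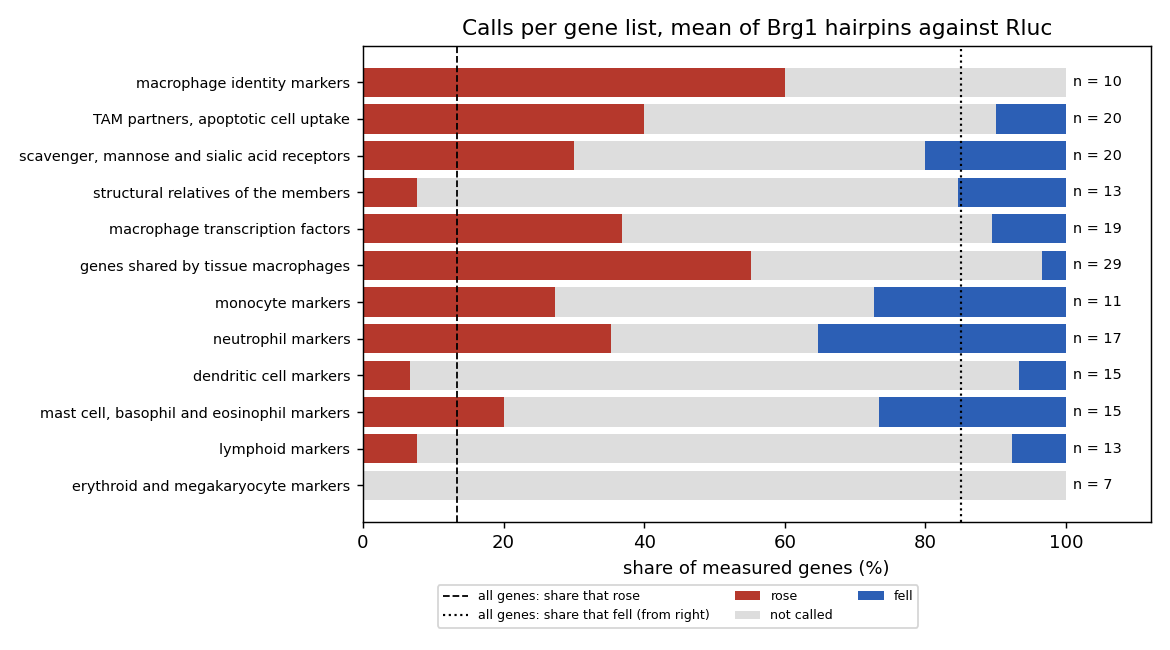
Share (x axis, % of measured genes) of each gene list that rose (red), was not called (grey) or fell (blue) in the mean of the 3 Brg1 hairpins against Rluc, with the number measured at the right; the dashed and dotted lines mark the shares of all genes that rose and fell. The markers and the tissue macrophage genes hold the longest red bars, and the neutrophil list is split evenly.

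Adgre1 and Mpeg1 were the 2 markers whose values spanned at least 1 log2 unit, and for these the genes with the most similar pattern over the 9 arrays were found among 593 genes that were above the median level and also spanned at least 1 log2 unit. The closest to Adgre1 by Pearson correlation were Susd3 (r = 0.994), Sema4d (r = 0.991) and Gpr141 (r = 0.991), with mean changes of 1.02, 1.27 and 1.09. The closest to Mpeg1 were Gpr183 (r = 0.980), Ahnak (r = 0.978) and Syne3 (r = 0.978), with mean changes of 1.33, 0.82 and 0.90. The correlations describe arrays that share groups and normalization, and they were picked as the highest among many, so no test goes with them. Of the genes closest to Adgre1, Gpr141 had its lowest hairpin values with Brg1sh_3364, 11.83 and 11.82, against a mean of 12.04 with Brg1sh_3232 (a difference of -0.21, adjusted p = 0.112, limma), and Susd3 and Sema4d differed by -0.0041 and -0.043 in that comparison (adjusted p = 0.989 and 0.749). All 3 genes closest to Mpeg1 were lower with Brg1sh_3364 than with Brg1sh_3232, by differences of -0.63 for Gpr183, -0.46 for Ahnak and -0.35 for Syne3. Mpeg1 was itself lower there, so picking genes by likeness to Mpeg1 over the same arrays favoured this pattern. It is a description and no separate result.

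**Figure D4:**
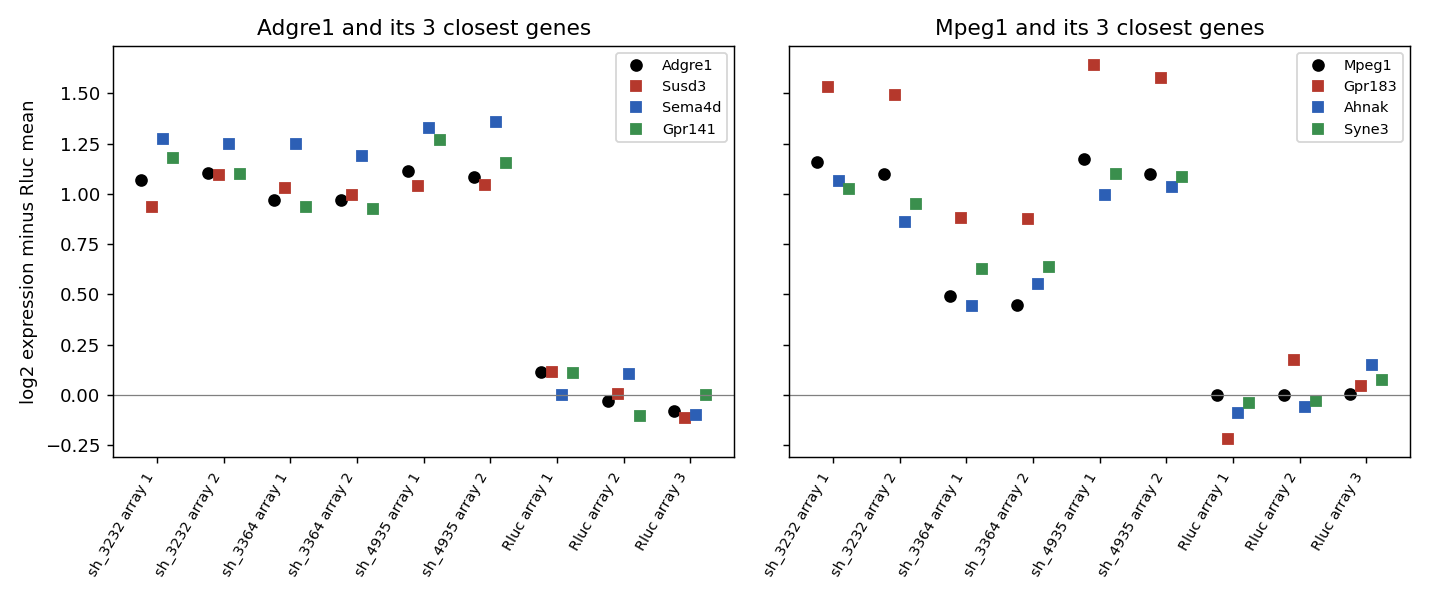
Log2 expression minus the Rluc mean (y axis) in each of the 9 arrays (x axis) for Adgre1 with its 3 closest genes (left) and Mpeg1 with its 3 closest genes (right); each point is 1 array. Every hairpin array lies above every Rluc array for all genes shown. The Brg1sh_3364 arrays lie between Rluc and the other hairpins for every gene shown except Susd3. The step is smaller for Adgre1, Gpr141 and Sema4d than for Mpeg1 and its 3 closest genes, which were picked for their likeness to Mpeg1.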

How the data were processed

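The authors deposited log2 expression values of 9 one-colour Affymetrix arrays, made with RMA (background correction, quantile normalization and probe set summary) per the submitters' processing notes. Neither the RMA version nor a genome build is stated there. Of 34760 probe sets, 21640 had 1 gene symbol in the platform annotation, 1321 had several and 11799 had none. The probe set with the highest mean was kept for each of 19937 genes.

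Group means of all 9 arrays were fitted with lmFit and eBayes of limma 3.58.1 in R 4.3.3 (5 residual and 3.85 prior degrees of freedom), tested two-sided and adjusted by Benjamini-Hochberg over all genes; the script was tested on simulated data. Array number limits the precision. Promoters came from RefSeq tables (GRCm38.p6) and were compared with Biopython 1.88.

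The members and the 13 lists (205 genes, 192 measured) were chosen with earlier results of these data known. Genes named from lists were taken from the called ones with the smallest p for the mean of hairpins, up to 3 a list, and not all of these are named. Ptprc, Kit, Tyro3, Gas6 and Pros1 were added after their values were seen. Further scaling, filters, probe set rules, variance priors, array weights, a replicate block, hairpin as replicate and left-out arrays were tried as alternatives. A list of 11 leukaemia and myeloid genes, for the label check, had 5 that rose, 3 that fell and 3 not called. In the same comparison, the mean of hairpins, 13.3% of all genes rose and 15% fell.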

Additional observations from a re-analysis of the deposited data

Results flagged for a closer look

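The hairpin groups differed for Mpeg1 (limma F test over the 3 hairpin groups, adjusted p = 0.000263), with a log2 change over Rluc of 1.13 with Brg1sh_3232, 0.47 with Brg1sh_3364 and 1.14 with Brg1sh_4935. They also differed for Mertk (adjusted p = 0.0103), with 0.13, 0.0058 and 0.44 in the same order of hairpins. For Mertk that difference was not called when either array of Brg1sh_3364 or Brg1sh_4935 was left out (adjusted p = 0.0596 to 0.0774). Smarca4 stood at 50.0%, 50.3% and 48.2% of Rluc with the 3 hairpins.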

How the results depend on the processing

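In the mean of hairpins, Adgre1 (1.01 to 1.11), Mpeg1 (0.80 to 1.13) and Cd68 (0.47 to 0.66) kept their calls in all 22 alternatives. The members called there numbered 6, against 3 with the replicate block, with hairpin means as replicates and with hairpin as a random block; genes called were 5635, against 2816 with hairpin means and 2557 with the random block. Calls in the lists fell too with hairpin means or the random block, to 4 from 10 (apoptotic cell uptake), 4 from 12 (neutrophil), 2 from 6 (monocyte) and 3 from 7 (mast cell). With Brg1sh_3232, members called were 5, against 3 with every row tested and 3 with only its 5 arrays in the fit, and genes called were 4155, against 2475 with only those arrays. Without 1 array, genes called were 2473 to 4136 (Brg1sh_3232), 3424 to 5052 (Brg1sh_3364), 2673 to 4292 (Brg1sh_4935), 4705 to 5407 (mean) and 677 to 2521 (differences among hairpins), and members called were 3 to 5, 2 to 3, 4 to 6, 3 to 6 and 1 to 3 in the same order. Counts moved by over 1.5 times without Brg1sh_3232 replicate 2 (genes and members with that hairpin), without Rluc replicate 2 (members with Brg1sh_3232), without either array of Brg1sh_4935 (genes with that hairpin), without Rluc replicate 3 (members in the mean) and, for differences among hairpins, without any 1 array of Brg1sh_3364 or Brg1sh_4935. These fits hold fewer arrays, and the cause was not tested further.

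Uncalled values changed sign. With arrays centred on their medians, Cd163 was -0.00070 with Brg1sh_3232 and -0.0070 with Brg1sh_4935, and with Brg1sh_3364 Mertk was -0.035 and Siglec1 -0.025. With quantile normalization, Mertk was -0.027 and Siglec1 -0.011 with Brg1sh_3364. Under the replicate block, Mertk was -0.029 with Brg1sh_3364 and Mrc1 0.0014 with Brg1sh_4935. Without 1 array, Cd163 was -0.018 to 0.068 (Brg1sh_3232) and -0.069 to 0.18 (Brg1sh_3364), Mertk -0.029 to 0.037 and Siglec1 -0.025 to 0.058 (Brg1sh_3364), and Mrc1 -0.082 to 0.0014 (Brg1sh_4935). Of 12 same-number pairs of arrays, 2 correlated above 0.1 (range -0.07 to 0.25), both between Brg1sh_3232 and Rluc (0.19 and 0.25). With 2 arrays per hairpin, the deviations from the group mean mirror each other, so the 12 values are not separate. Whether replicate numbers pair the arrays cannot be decided from them. Centring moved the share of rises among calls to 36.5% from 47.1% (mean) and to 31.6% from 44.3% (Brg1sh_4935), with a shift of all genes' median of at most 0.06. With the dim genes left out, 5 members were not tested.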
